A study of Homo sapiens with 6 samples.

Results

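Senescent IMR90 fibroblasts were profiled by CUT&Tag with antibodies against CTCF and against SMC1, and the 2 peak lists were set against each other on chromosomes 1 to 22 and X. The CTCF list held 8577 peaks and the SMC1 list 12927, together 21504 of the 65597 peaks in the 6 libraries of the series. A CTCF peak and an SMC1 peak were called joint when they overlapped by at least 1 bp, and all others were called CTCF-only or SMC1-only. By this rule 4306 CTCF peaks were joint and 4271 were CTCF-only, while 4378 SMC1 peaks were joint and 8549 were SMC1-only. IMR90 are primary human lung fibroblasts that stop dividing after many passages, and both senescent libraries carry the p number 34 in their titles, name no treatment and were taken as the senescent ones from the design text of the series. The other libraries come from control cells (p number 21 for CTCF and 16 for SMC1) and from cells treated with ICM, or inflachromene, a small molecule that binds HMGB proteins (p number 16, labelled with 6 days for CTCF and with no number of days for SMC1). Each group has 1 library from 1 cell line, so no difference between libraries could be set against a replicate spread. The intervals given are exact 95% intervals that cover counting over peaks, genes or promoter windows alone.

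CTCF is a zinc finger protein that binds a long, directional DNA motif and acts as an insulator. SMC1 is a subunit of cohesin, the ring-shaped complex that extrudes chromatin loops and tends to halt at bound CTCF, and cohesin is also loaded and found at active promoters and enhancers without CTCF. Sites that carry both proteins are candidates for loop anchors, and the lists ask where the 2 proteins coincide in senescent cells. A peak in these lists is a region of enriched fragment coverage. A peak list holds only regions above a limit, so CTCF-only means that no SMC1 region passed the limit there and not that cohesin was absent. The lists hold no expression values, so the labelled cell type was not checked against its markers here.

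Promoter windows show part of the sequence at promoter peaks. RefSeq sequence was at hand for 300 bp around gene starts on GRCh38.p14, from 250 bp before to 50 bp after each start. The windows are narrower than most peaks, and a summit can lie outside its window. The windows were searched on both strands for 3 cores of 9 letters of the CTCF motif, CNAGGGGGC, CNAGGTGGC and CNAGATGGC, where N is any base. The last of them shares letters with the motif of YY1, another zinc finger protein found at promoters. The following windows, each on the strand of its gene, are of the 2 joint and the 2 CTCF-only protein-coding promoters of highest rank with a core in the window (SARS2, a mitochondrial seryl-tRNA synthetase, and ARHGAP22, a GTPase-activating protein, then TRAF6, an adaptor of NF-κB signalling, and KRTCAP2, a subunit of the protein glycosylation enzyme) and of the SMC1-only promoter of highest rank (UGDH, which makes a sugar precursor of hyaluronan). RUVBL2, a helicase-like ATPase of chromatin remodelling complexes, was added after its values were seen as the highest joint promoter with both summits within 50 bp of a core. Capitals mark the core, and UGDH holds none.
SARS2: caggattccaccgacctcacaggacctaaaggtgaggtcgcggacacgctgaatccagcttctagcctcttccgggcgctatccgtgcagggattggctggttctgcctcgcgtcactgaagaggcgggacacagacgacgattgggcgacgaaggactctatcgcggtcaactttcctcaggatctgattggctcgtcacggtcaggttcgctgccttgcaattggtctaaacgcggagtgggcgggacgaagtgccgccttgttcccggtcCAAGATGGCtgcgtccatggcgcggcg
ARHGAP22: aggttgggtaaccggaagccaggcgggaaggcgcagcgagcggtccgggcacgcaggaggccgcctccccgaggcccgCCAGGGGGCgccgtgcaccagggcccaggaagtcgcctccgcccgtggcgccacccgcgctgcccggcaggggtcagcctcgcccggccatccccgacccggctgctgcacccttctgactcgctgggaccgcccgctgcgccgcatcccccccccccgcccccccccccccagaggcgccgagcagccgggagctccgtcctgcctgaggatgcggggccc
RUVBL2: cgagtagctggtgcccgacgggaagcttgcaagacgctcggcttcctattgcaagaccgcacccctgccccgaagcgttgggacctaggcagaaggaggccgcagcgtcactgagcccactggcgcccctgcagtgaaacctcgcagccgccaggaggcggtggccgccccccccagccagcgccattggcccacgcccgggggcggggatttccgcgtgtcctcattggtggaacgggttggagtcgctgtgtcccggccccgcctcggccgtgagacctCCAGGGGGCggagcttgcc
TRAF6: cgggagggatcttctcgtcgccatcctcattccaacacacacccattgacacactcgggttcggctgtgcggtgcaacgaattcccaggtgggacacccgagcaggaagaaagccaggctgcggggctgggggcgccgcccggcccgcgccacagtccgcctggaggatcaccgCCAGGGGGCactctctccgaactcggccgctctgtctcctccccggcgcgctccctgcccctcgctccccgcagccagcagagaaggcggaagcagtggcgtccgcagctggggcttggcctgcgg
KRTCAP2: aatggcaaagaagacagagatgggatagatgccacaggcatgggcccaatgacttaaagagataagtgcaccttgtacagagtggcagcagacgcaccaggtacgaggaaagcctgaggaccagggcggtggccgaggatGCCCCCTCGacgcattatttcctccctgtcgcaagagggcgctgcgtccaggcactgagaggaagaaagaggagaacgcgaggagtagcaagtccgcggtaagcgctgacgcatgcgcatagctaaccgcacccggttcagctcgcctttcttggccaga
UGDH: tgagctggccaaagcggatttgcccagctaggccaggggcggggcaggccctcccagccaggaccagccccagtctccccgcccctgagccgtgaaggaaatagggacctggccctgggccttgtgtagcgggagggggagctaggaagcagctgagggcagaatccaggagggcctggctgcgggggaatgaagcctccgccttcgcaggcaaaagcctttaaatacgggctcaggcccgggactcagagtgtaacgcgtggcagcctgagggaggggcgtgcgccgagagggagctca

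The SARS2 window is chr19:38930714-38931013 (minus strand), and its core is the one whose letters YY1 shares. Its summits, at bases 453 and 448 when counted from the first base printed, lay beyond the end of the window, inside the gene and 5 bp apart. The ARHGAP22 window is chr10:48656216-48656515 (minus strand), with the core at bases 79 to 87, the CTCF summit at base 56 and the SMC1 summit at base 174. The RUVBL2 window is chr19:48993198-48993497 (plus strand), with the core at bases 282 to 290. That core lay between the CTCF summit at base 244 and the SMC1 summit at base 328, which is beyond the end of the window. The CTCF-only windows were those of TRAF6, chr11:36510223-36510522 (minus strand, core at bases 175 to 183, summit at base 266), and of KRTCAP2, chr1:155173255-155173554 (minus strand, core at bases 141 to 149, summit at base 206). The KRTCAP2 core runs against its gene, while the other 4 run along it. The KRTCAP2 window also holds the letters caagagggc along the gene, close to the searched cores but not among them. The marked core is therefore not shown to be the site under the peak. The UGDH window is chr4:39527390-39527689 (minus strand), with the SMC1 summit at base 87.

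Over all 34789 promoter windows, 6.87% held a core (2390 windows). A core was found in 18.4% of the 831 windows that held the summit of a joint CTCF peak (15.8 to 21.2) and in 27.1% of the 388 windows with a CTCF-only summit (22.7 to 31.8). Windows with an SMC1-only summit stood closer to the background, at 9.14% of 2101 (7.94 to 10.5), and windows with no summit of either list were at 6.15%. The order was the same for the first 2 cores alone, with 13.5%, 24.5% and 5.76% for joint, CTCF-only and SMC1-only windows against 5.04% of all windows. The median GC content was 65.7% in each of these 3 classes and 58.7% over all windows. Within windows of 60 to 70% GC, 20.03% of the 594 with a CTCF summit held a core, 9.39% of the 1022 with an SMC1-only summit and 8.31% of the 7505 with no summit. The share rose with the height of the CTCF peak, from 12.7% of joint windows in the lowest quartile of the list by highest signal to 27.2% in the top quartile, and from 20.2% to 43.5% of CTCF-only windows. Windows of alternative gene starts can overlap and hold the same summit. The 153 joint windows with a core held 135 CTCF summits, and the 105 CTCF-only windows held 87. The intervals count windows as if they were independent. A match is a description of letters and not a measured binding site. These shares count exact matches to the searched cores inside the promoter window alone. They are therefore not the share of CTCF peaks that hold a CTCF motif, and a window without a core can still hold one. The paper kept CTCF peaks by its own motif search, and its senescent set is only slightly smaller than the list used here. Most peaks here may thus hold a motif by that search.

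Distances to the core were taken for CTCF summits in a window that also held a core, a choice that keeps every CTCF summit within the window of 300 bp and leaves the SMC1 summit free. The CTCF summit of the 135 joint peaks was a median of 55 bp from the nearest core (42 to 71), and that of the 87 CTCF-only peaks 45 bp (39 to 53). The SMC1 summit of the same 135 joint peaks was a median of 93 bp from it (81 to 117), a value that cannot be compared with that of CTCF because of this choice. Some of these cores may not be bound sites, since 8.31% of windows of 60 to 70% GC with no summit also held a core. The core whose letters YY1 shares is included too. The sides given next are therefore those of letter matches, and a side preference at bound motifs cannot be read from them. SMC1 summits were found on both sides of the core. Signed along the core, 51.1% of SMC1 summits lay on its 3′ side (42.4 to 59.8), and in the 59 pairs with the CTCF summit within 50 bp and the SMC1 summit within 500 bp of the core the median SMC1 summit lay 0 bp from the CTCF summit (-25 to 6).

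Joint peaks made up 50.2% of the CTCF list (49.1 to 51.3) and 33.9% of the SMC1 list (33.1 to 34.7). Matching was close to 1 to 1, since 4223 CTCF peaks met 1 SMC1 peak, 82 met 2 and 1 met 3, and only 12 SMC1 peaks met 2 CTCF peaks. The other peaks were not near misses. A CTCF-only peak lay a median of 34660 bp from the nearest SMC1 peak, with 3.35% within 1000 bp, and an SMC1-only peak lay 59985 bp from the nearest CTCF peak, with 2.37% within 1000 bp. The CTCF list covered 10.7 Mb and the SMC1 list 14.1 Mb.

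Within joint peaks the 2 summits fell almost together. The summit is the midpoint of the region of highest signal in a peak, and the nearest SMC1 summit lay a median of 53 bp from the CTCF summit (51 to 56, 4306 peaks), with quartiles of 15 and 123 bp. In 216 pairs (5.02%) the summits were at the same base, in 48.2% they lay within 50 bp, in 69.6% within 100 bp and in 88.2% within 250 bp. Neither direction prevailed, as SMC1 lay at the higher coordinate in 49.2% of the 4090 pairs with unequal summits, and at promoters it lay downstream of CTCF along the gene in 52.2% of 1292 (49.5 to 55.0). Promoter pairs, whose CTCF summit lay no more than 1 kb from a gene's 5′ end, were looser (68 bp, 62 to 73, 1356 pairs) than pairs in genes and between genes (47 bp each). Their CTCF peaks were also wider than those of distal pairs (median 1324.5 against 1207 bp), which leaves room for larger offsets.

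**Figure D1:**
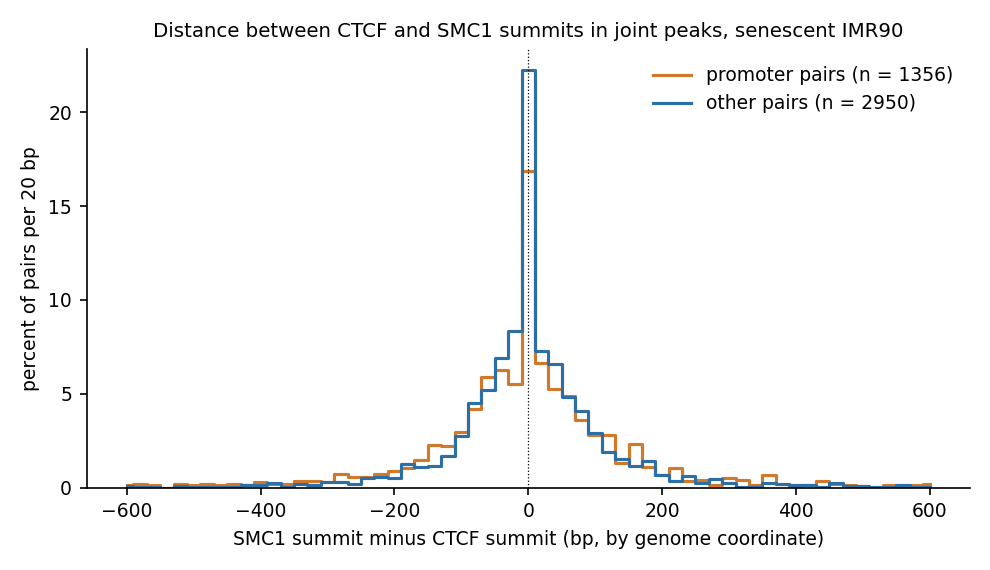
Distance from the CTCF summit to the nearest SMC1 summit in joint peaks (bp, by genome coordinate, x axis) as the percent of pairs per 20 bp (y axis), for promoter pairs (orange, n = 1356) and other pairs (blue, n = 2950). Both curves peak at 0, do not lean to a side and are broader at promoters, and the pairs beyond the axis are not drawn.

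The offset shortened as the peaks grew taller. When pairs were grouped by the lower of their 2 percentiles of highest signal, the median offset was 92 bp in the lowest quartile, 48 and 40 bp in the middle ones and 34 bp in the highest. In the 289 pairs in the top decile of both lists by highest signal it was 31 bp (22 to 41), with 82.7% within 100 bp. By total signal no such order was seen, with medians of 55, 51, 53.5 and 55 bp from the lowest to the highest quartile. The 280 pairs more than 500 bp apart (6.50%) were wide regions of modest height. Their CTCF peaks had a median width of 1923.5 bp against 1182.5 bp in pairs within 100 bp, their median percentile of highest signal was 39.5 against 65.7, and 42.9% were promoter pairs against 27.9%. The width contrast is partly set by the matching rule, since peaks with distant summits can overlap only where they are wide.

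The extremes show both kinds. The largest offset was at PDE4A, a cAMP phosphodiesterase, where the CTCF summit stood 71 bp past the 5′ end in a peak of 3130 bp and the SMC1 summit stood 3136 bp past it, in a peak at the 3.42 percentile of its list by total signal. The next largest, 2912 bp, joined a low CTCF peak by THOC6 (4.49 percentile) with a long SMC1 peak of 4414 bp whose summit lay at TNFRSF12A, the TWEAK receptor (99.9 percentile). Among pairs in the top decile of both lists by total signal, the summits coincided at LINC03060, a long non-coding RNA on chromosome 7 (CTCF percentile 99.5, SMC1 99.6), and at MTATP6P1, a nuclear copy of the mitochondrial ATP6 gene on chromosome 1. MTATP6P1 had the highest signals of 582 and 604 in the CTCF and SMC1 lists and was above the 98 percentile in all 6 lists. The 1 mitochondrial peak per list, left out here, held 18.04% of the listed CTCF signal and 31.4% of the listed SMC1 signal, and its part in the MTATP6P1 peaks was not tested.

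Joint CTCF peaks ranked higher than CTCF-only peaks. By total signal, the coverage summed over a peak, the median percentile within the CTCF list was 66.2 for joint peaks (64.8 to 67.7) and 37.1 for CTCF-only peaks (35.9 to 38.6), and by highest signal it was 60.1 and 43.7. In the SMC1 list the medians were 63.6 for joint and 43.9 for SMC1-only peaks by total signal, and 65.4 and 40.1 by highest signal. Joint CTCF peaks were also wider (1247 against 1011 bp), which by itself gives more room to overlap, while joint and SMC1-only SMC1 peaks had nearly the same width (1016.5 and 1000 bp). Within joint pairs the ranks of the 2 proteins went together only loosely, with a Spearman coefficient of 0.244 for total and 0.308 for highest signal over 4306 pairs of shared position, and with lower values at promoters (0.157 and 0.220) than elsewhere (0.319 and 0.382).

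The joint share climbed through the lists. From the lowest to the highest decile of total signal it went from 30.1% to 89.5% of CTCF peaks, and from 21.9% to 65.2% of SMC1 peaks. Ranked by highest signal, the SMC1 list climbed in a like way, from 15.8% to 62.8%, but the CTCF list was high at both ends. Its lowest decile was 55.5% joint (52.2 to 58.7), above the 33.5% of the fourth decile, and the top decile reached 83.7%. The CTCF peaks of that lowest decile were broad and flat, with a median width of 1371 bp and a median highest signal of 16, and 40.8% of them were promoter peaks against 20.8% in the fourth decile. By width alone the joint share of CTCF peaks went from 26.0% in the narrowest to 71.6% in the widest decile, so total signal, width and joining moved together in this list, and their separate parts were not tested.

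**Figure D2:**
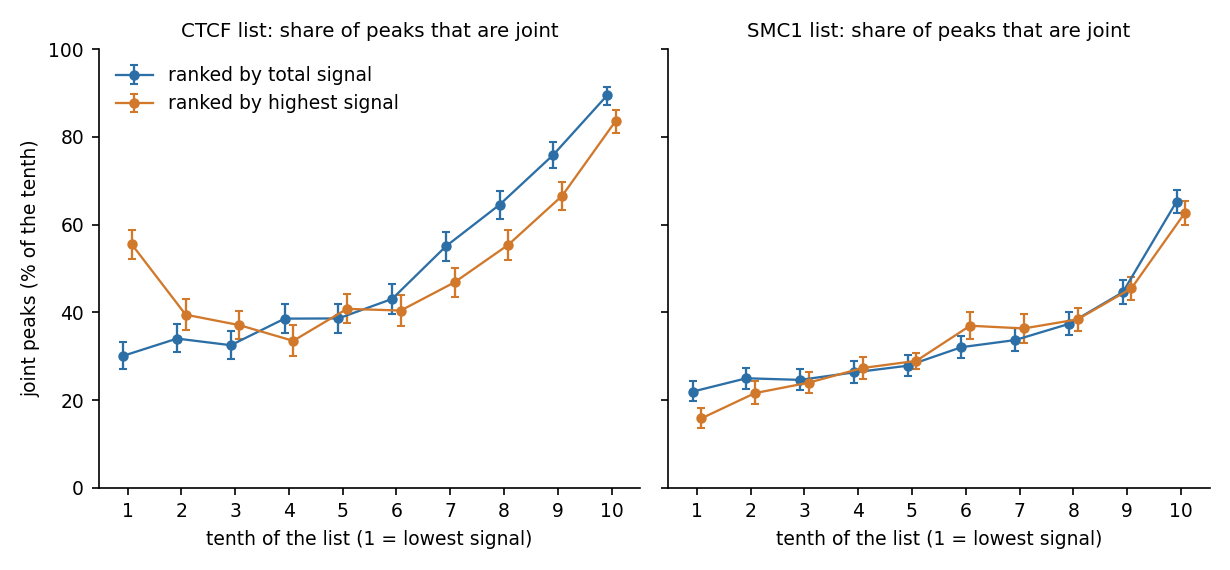
Joint peaks as a percent of each decile (y axis) of the CTCF list (left) and the SMC1 list (right), from the lowest to the highest signal (x axis), ranked by total signal (blue) or highest signal (orange), with exact 95% intervals. The share reaches 89.5% and 65.2% in the top deciles by total signal, and the lowest CTCF decile by highest signal stands out at 55.5%.

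The strongest joint peaks outside promoters were in all 6 lists. The highest pair, in LOC102724701 on chromosome 21, spanned 5931 bp for CTCF and 5874 bp for SMC1, with its summits 28 bp apart, and stood above the 99.9 percentile of every list. That pair had the highest total signal of both senescent lists (193563 and 218345), and whether misplaced reads contribute to it was not tested. The next was in ZBTB45, a zinc finger gene on chromosome 19, with an offset of 181 bp and percentiles of 99.6 and 99.7 in the control and ICM CTCF lists and of 98.9 and 99.5 in the control and ICM SMC1 lists. The same held for EFNA3, an ephrin ligand (offset 43 bp, percentiles from 98.6 to 99.8 over the 6 lists). At promoters, WDR38 led (CTCF 99.9, SMC1 99.9, offset 14 bp, chr9:124851785-124854432), followed by TP53I3, an oxidoreductase (CTCF 99.9, SMC1 99.8, offset 207 bp, chr2:24083296-24084924), and by MTATP6P1.

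The strongest CTCF-only peaks were high in every CTCF list and mostly met an SMC1 peak in the other conditions. GORASP2, a Golgi stacking protein, had both the highest total signal and the highest peak of the class (chr2:170928181-170930556, 569 bp past its 5′ end), with CTCF percentiles of 97.8 in control, 97.2 in ICM and 99.6 in senescent cells. An SMC1 peak overlapped it at the 61.3 percentile in control and 83.3 in ICM cells, and the nearest senescent SMC1 peak was 42578 bp away. TRAF6 was similar, with CTCF percentiles of 94.1, 97.0 and 96.8 and SMC1 percentiles of 43.8 in control and 6.59 in ICM cells, where it was near the bottom of the list. LINC02724, a long non-coding RNA, met no control SMC1 peak and a low one in ICM cells (40.6 percentile, highest signal 6). Of the distal leaders, in PHF24 near CCL21 and in ZNF385A, the CTCF percentiles in senescent cells were 98.9 and 97.6, and an SMC1 peak was listed at both in control cells, at percentiles of 1.28 and 46.4. At ENTREP3, the second highest CTCF-only peak by highest signal, a senescent SMC1 peak lay 3810 bp away and SMC1 peaks covered it in both other conditions (31.4 and 49.97).

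The strongest SMC1-only peaks were constitutive. UGDH (chr4:39526520-39528415, summit 164 bp before the 5′ end) stood at SMC1 percentiles of 99.9 in control, 99.8 in ICM and 99.9 in senescent cells, and control and ICM cells also had a low CTCF peak there (19.9 and 44.3). RAP2B, a small GTPase, gave 99.8, 99.9 and 99.6 for SMC1, with CTCF peaks at 37.5 and 54.2 in the other 2 conditions and none in senescent cells within 604237 bp. SLC2A1-DT, a transcript that starts beside the glucose transporter gene SLC2A1, carried a broad peak of 5321 bp (95.9, 95.3 and 99.8) with no CTCF peak in any list. HDGF, a growth factor gene, had the tallest SMC1-only peak (highest signal 48), again with no CTCF peak in any list. Away from promoters the leaders were in DRC4, in EGFR, the epidermal growth factor receptor, and in PLEC, a cytoskeletal linker, with senescent percentiles of 99.9, 99.7 and 99.7. Of these, EGFR alone met a CTCF peak in another list (ICM, 15.1 percentile).

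The 3 classes differed in place. A promoter summit was found for 31.5% of joint CTCF peaks (30.1 to 32.9), for 16.5% of CTCF-only peaks (15.4 to 17.7) and for 34.4% of SMC1-only peaks (33.4 to 35.4). CTCF-only peaks were the class most often in genes away from promoters (50.9%) and between genes (32.6%), and SMC1-only peaks were least often between genes (20.7%). Turned round, 65.8% of promoter CTCF peaks were joint (63.7 to 67.8), against 45.6% of those in genes and 44.7% of those between genes. For SMC1 the order was the reverse and the gap was smaller, with 32.3% of promoter peaks joint, 32.4% in genes and 39.1% between genes.

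**Figure D3:**
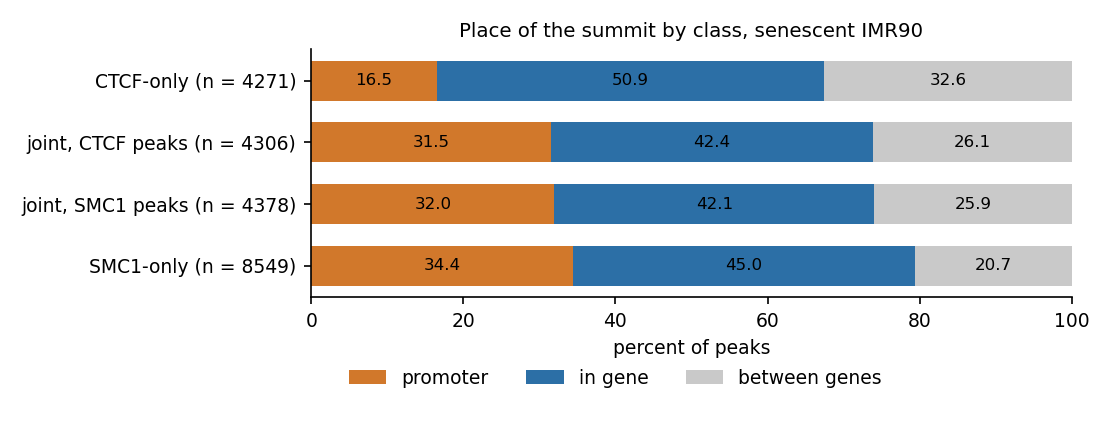
Percent of peaks (x axis) with the summit at a promoter (within 1 kb of a 5′ end, orange), elsewhere in a gene (blue) or between genes (grey), for CTCF-only, joint and SMC1-only peaks. CTCF-only peaks have the smallest promoter share (16.5%), and joint and SMC1-only peaks lie between 31.5% and 34.4%.

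The gap in joint share between promoter and distal CTCF peaks was widest among weak peaks. In the lowest quartile of total signal 56.9% of promoter CTCF peaks were joint against 24.4% of distal ones, and in the middle quartiles the shares were 55.5% against 32.5% and 64.3% against 48.2%. In the top quartile they were 82.3% (79.02 to 85.2) and 78.5% (76.3 to 80.5), whose intervals overlap. Ranked by highest signal the gap also narrowed but remained in the top quartile, with 67.0% against 35.3% in the lowest and 79.3% (75.5 to 82.7) against 70.2% (67.9 to 72.4) in the highest. Promoter peaks were wider than distal ones in each quartile, with medians of 1034 and 908.5 bp in the lowest and 1584 and 1464 bp in the highest. In the SMC1 list promoter peaks were less often joint than distal ones in the lower 3 quartiles of total signal (18.2% against 25.3% in the lowest) and about equally often in the top quartile (51.4% and 51.3%). This order depended on the ranking, since by highest signal the SMC1 shares were 16.3% at promoters against 23.1% elsewhere in the lowest quartile but 54.4% (51.4 to 57.3) against 48.5% (46.4 to 50.7) in the highest.

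At promoters the summits lay just before the 5′ end in every class. The median was 75 bp upstream for joint CTCF peaks, 71 bp for CTCF-only and 34 bp for SMC1-only peaks, written as positions of -75, -71 and -34 bp along the gene. Joint SMC1 peaks at promoters ranked above distal ones, with median percentiles of 77.1 against 57.2 by total signal and 71.5 against 58.3 by highest signal. Joint CTCF peaks at promoters ranked below distal ones. The gap was small by total signal (62.1 against 67.8) and larger by highest signal (46.3 against 65.7).

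Most joint peaks were also listed in the other conditions, and many CTCF-only peaks were not. Of joint CTCF peaks 69.1% overlapped a control CTCF peak, 82.7% an ICM CTCF peak and 90.2% an SMC1 peak of control or ICM cells. Of CTCF-only peaks the shares were 32.1%, 48.4% and 37.5%, and 48.9% (47.4 to 50.4) met no CTCF peak of either condition, against 15.4% of joint peaks (14.3 to 16.5). Where a control CTCF peak was present, a control SMC1 peak was also there for 89.4% of joint but 42.5% of CTCF-only peaks. The absent share was larger away from promoters, where 53.2% of CTCF-only peaks met no CTCF peak of the other conditions, than at promoters, where 26.8% did. CTCF-only peaks also ranked lower than joint ones (median percentile 37.1 against 66.2 by total signal) and were narrower (1011 against 1247 bp). The control and ICM CTCF lists were shorter (4673 and 6728 peaks against 8577). The part of rank, width and list length in these shares was not tested.

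SMC1-only peaks were for the most part SMC1 peaks elsewhere too. A control SMC1 peak overlapped 66.5% and an ICM SMC1 peak 71.3% of them, and 21.01% met neither (20.1 to 21.9), against 10.1% of joint SMC1 peaks (9.18 to 10.98). Few met CTCF in another condition, 3.98% in control and 10.9% in ICM cells. At promoters the shares were higher, with 83.2% in the control SMC1 list and 18.8% in the ICM CTCF list. SMC1-only peaks also ranked lower than joint SMC1 peaks (median percentile 43.9 against 63.6 by total signal), and the part of rank was not tested. All these shares read the same 4 control and ICM lists, so they are not independent of each other.

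**Figure D4:**
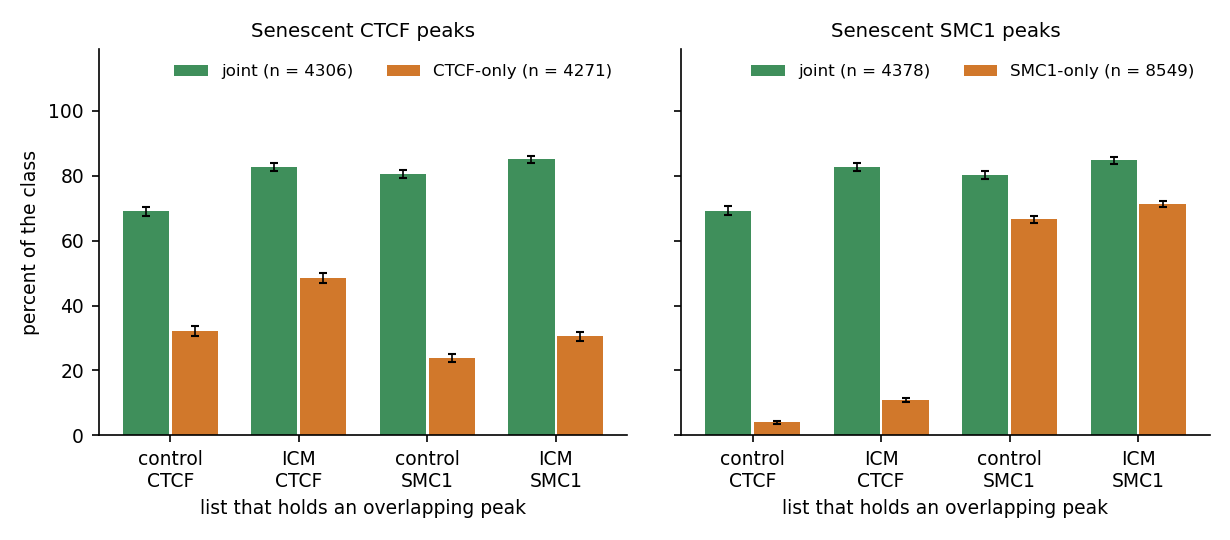
Percent of each senescent class (y axis, exact 95% intervals) that overlaps a peak of the control or ICM lists (x axis), for CTCF peaks (left) and SMC1 peaks (right), with joint peaks in green and single peaks in orange. CTCF-only peaks fall below joint peaks in all 4 lists, and SMC1-only peaks overlap the CTCF lists least often (3.98% and 10.9%).

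The same matching in the other conditions gave 75.8% joint CTCF peaks in control and 72.6% in ICM cells beside 50.2% in senescent cells, and 25.2%, 30.2% and 33.9% joint SMC1 peaks. The median offset was 59, 64 and 53 bp. These shares depend on how long and how wide the lists are, and the CTCF lists held 4673, 6728 and 8577 peaks of median width 1797, 1960.5 and 1120 bp, so a change in co-occupancy and a change in what was listed cannot be told apart. The control libraries of the 2 antibodies also carry different p numbers.

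Gene promoters were then classed by the peaks with a summit no more than 1 kb from the gene's 5′ end. Of 19630 protein-coding genes, 1388 had a joint peak (7.07%), 547 a CTCF-only peak (2.79%), 3012 an SMC1-only peak (15.3%) and 9 separate CTCF and SMC1 peaks (0.0458%). The gene lists below are read against these shares. They were drawn up from textbook knowledge with results of these data known, they are small, and no list was tested. Percentiles of named genes below are by total signal, which went with width (Spearman coefficient 0.450 in the CTCF list and 0.500 in the SMC1 list). By highest signal the rank could be much lower, as for CTCF at its own promoter (26.8) and SMC1 at IL6 (30.2) and COL6A1 (20.4). It could also be higher, as at CDKN2D (82.1 for CTCF and 84.7 for SMC1).

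Of 18 genes of the CTCF and cohesin machinery, 4 had a joint promoter peak (22.2%) and 5 an SMC1-only peak (27.8%). CTCF itself was joint, with both summits 364 bp before its 5′ end, at senescent percentiles of 82.3 for CTCF and 84.6 for SMC1, beside 95.1 and 95.7 in control and 95.8 and 91.1 in ICM cells. The others were the cohesin subunit STAG1 (CTCF 83.2, SMC1 88.3), the cohesin acetyltransferase ESCO1 (87.2 and 61.2) and the cohesin regulator PDS5B (72.3 and 34.7). The SMC1-only promoters were those of MAU2, a subunit of the cohesin loader (85.8), of SMC1A, the antibody's own target (64.1), of the zinc finger factors MAZ (50.3) and ZNF143 (41.6), and of SMC3, the ring partner of SMC1 (31.0). SMC1 was listed at all 9 promoters in control and ICM cells as well.

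The 9 genes of HMG proteins, the family that ICM binds through its HMGB members, had no CTCF promoter peak in senescent cells and 5 SMC1-only peaks (55.6%). HMGB1 stood at SMC1 percentiles of 90.9 in control, 96.6 in ICM and 85.8 in senescent cells. HMGB2, whose loss from the nucleus is known in replicative senescence, stood at 96.6, 88.9 and 83.8, and HMGN4 at 74.7, 93.7 and 59.0. The other 2 were HMGN3 (27.3 in senescent cells) and HMGA2 (8.90), the 2 lowest of the 5.

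Of 35 genes of the senescence-associated secretory programme 2 were joint (5.71%), 1 was CTCF-only and 8 were SMC1-only (22.9%). VEGFA, an angiogenic factor, had a joint peak at percentiles of 95.9 for CTCF and 96.8 for SMC1, and INHBA, which makes activin A, at 26.0 and 79.4. TGFB1 was CTCF-only at a low rank (7.74), with the nearest SMC1 peak 1617 bp away. IL6 carried SMC1 at 92.4 in control, 93.9 in ICM and 86.7 in senescent cells, and a CTCF peak in the first 2 (53.4 and 70.1) but not in senescent cells. The protease gene PLAU (53.0, 91.6 and 79.2) and IGFBP3 (86.4, 61.7 and 50.2) followed, and at IGFBP3 a senescent CTCF peak ended 225 bp from the SMC1 peak. CCL2, a chemokine, and the cytokine LIF, picked after their values were seen, had an SMC1 peak in no other list and low ranks in senescent cells (15.6 and 14.2, highest signal 8 each).

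Cell-cycle arrest genes had 4 joint (20%) and 7 SMC1-only promoters (35%) of 20. The CDK inhibitor gene CDKN2B was joint with summits at -58 and -59 bp and with CTCF percentiles of 90.6, 96.3 and 81.9 and SMC1 percentiles of 96.5, 98.5 and 91.2 in control, ICM and senescent cells. CDKN2D, another CDK inhibitor, was joint at 45.8 and 46.1 with both summits 2 bp past its 5′ end. At MDM2, a ubiquitin ligase, the ranks were 4.59 and 62.0, no SMC1 peak was listed in control or ICM cells, and of the other CTCF lists ICM alone had one (43.9). SMC1-only promoters included BTG2 (87.8), GADD45A (71.6) and SESN1 (64.1), all stress-response genes. CDKN2A, which encodes p16 among its products, was picked after its values were seen. At its outermost 5′ end the SMC1 peak was listed in senescent (41.0) and ICM cells (66.5) and not in control cells, with no CTCF peak in any list. Inner starts of CDKN2A were not examined, so these values do not describe the start of the p16 transcript.

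Proliferation genes stood near the background, with 1 joint and 7 SMC1-only promoters of 30 (3.33% and 23.3%). The joint one was PCNA, the sliding clamp of replication, at percentiles of 88.6 for CTCF and 95.6 for SMC1, with summits at -248 and -243 bp. The leading SMC1-only ones were the replication helicase gene MCM3 (63.5), TOP2A (56.5) and AURKA (50.9).

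Matrix and contractile genes of fibroblasts had 4 joint, 1 CTCF-only and 8 SMC1-only promoters of 31 (12.9%, 3.23% and 25.8%). THBS1, which encodes thrombospondin, carried an SMC1 peak of 4903 bp near the top of all SMC1 lists (above 99.9), over a CTCF peak at the 69.2 percentile whose summit lay 677 bp before the 5′ end. COL1A1 was at 67.8 for CTCF and 98.9 for SMC1, and ACTA2, smooth muscle actin, at 16.7 and 48.4. ELN, elastin, counted as joint through its SMC1 peak (75.5), since the overlapping CTCF summit lay outside the promoter window. BGN was CTCF-only (17.1) and had an SMC1 peak in control cells alone (72.0). VIM (92.1), COL6A1 (88.3) and COL1A2 (81.8) led the SMC1-only promoters, and COL6A1 had no control SMC1 peak. Of 26 transcription factors of lung mesenchyme 3 were joint (11.5%), GLI1 (CTCF 97.2, SMC1 15.6), TBX3 (43.7 and 94.5) and SNAI2 (12.7 and 94.3), and 4 were SMC1-only (15.4%), among them FOXF1 (72.7), TCF21 (54.8) and OSR1 (42.1). GLI1 and SNAI2 show that a joint promoter could be high in either list and low in the other, while TBX3 was near the middle of the CTCF list.

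Immediate early genes, which respond within minutes to growth signals, had 5 joint, 1 CTCF-only and 5 SMC1-only promoters of 22 (22.7%, 4.55% and 22.7%). EGR1 and JUN were joint through SMC1 peaks at 98.5 and 99.8 whose overlapping CTCF peaks, at 97.9 and 26.6, had their summits outside the promoter window. SRF was at 97.7 for CTCF and 93.0 for SMC1, DUSP1 at 31.3 and 96.5 and IER2 at 13.0 and 0.948. FOSL2 (99.4), MYC (98.7) and DUSP6 (82.7) were SMC1-only, and a CTCF peak ended 411 bp from the MYC peak. JUND was CTCF-only at the 17.8 percentile, with SMC1 peaks in control (95.6) and ICM cells (93.8).

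The clustered gene families had few SMC1 promoter peaks. Of 39 HOX genes, the body-plan regulators, none had a joint or SMC1-only promoter in the senescent lists and 2 were CTCF-only (5.13%), HOXA5 (34.7) and HOXB5 (17.4), both of which had an SMC1 peak in control cells (70.3 and 59.0). These counts concern outermost 5′ ends, which HOXC4, HOXC5 and HOXC6 share, and inner starts were not examined. Of 53 clustered protocadherin genes, cell-surface proteins whose alternative promoters are known to bind CTCF, 5 were CTCF-only (9.43%), 2 joint (3.77%) and 1 SMC1-only (1.89%). The joint ones were PCDHGA7 (CTCF 59.3, SMC1 40.0) and PCDHGB7 (50.4 and 20.9), and PCDHGC3 was SMC1-only (73.7). The CTCF-only peaks with the highest ranks were at PCDHB13 (48.6), PCDHGA10 (33.0) and PCDHGA8 (29.4), and the first and the last of these met no peak of any other list. Protocadherin promoters resemble each other in sequence, so reads could be placed at the wrong copy.

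Of 79 cytosolic ribosomal protein genes 9 were joint (11.4%), 8 CTCF-only (10.1%) and 18 SMC1-only (22.8%), beside 7.07%, 2.79% and 15.3% of all protein-coding genes. Joint promoters included RPL10A (CTCF 87.2, SMC1 89.9), RPL26 (97.9 and 64.3), RPL36 (96.1 and 55.7) and RPS19 (85.3 and 51.9). RPLP0 (85.6), RPL38 (82.7) and RPS14 (71.9) were CTCF-only, and of these RPS14 had an SMC1 peak in both other conditions. RPL28 (94.3), RPL7 (89.6) and RPS27A (84.9) were SMC1-only, and RPL7 had CTCF peaks in control (71.8) and ICM cells (83.0) where the senescent list had none within 118327 bp.

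**Figure D5:**
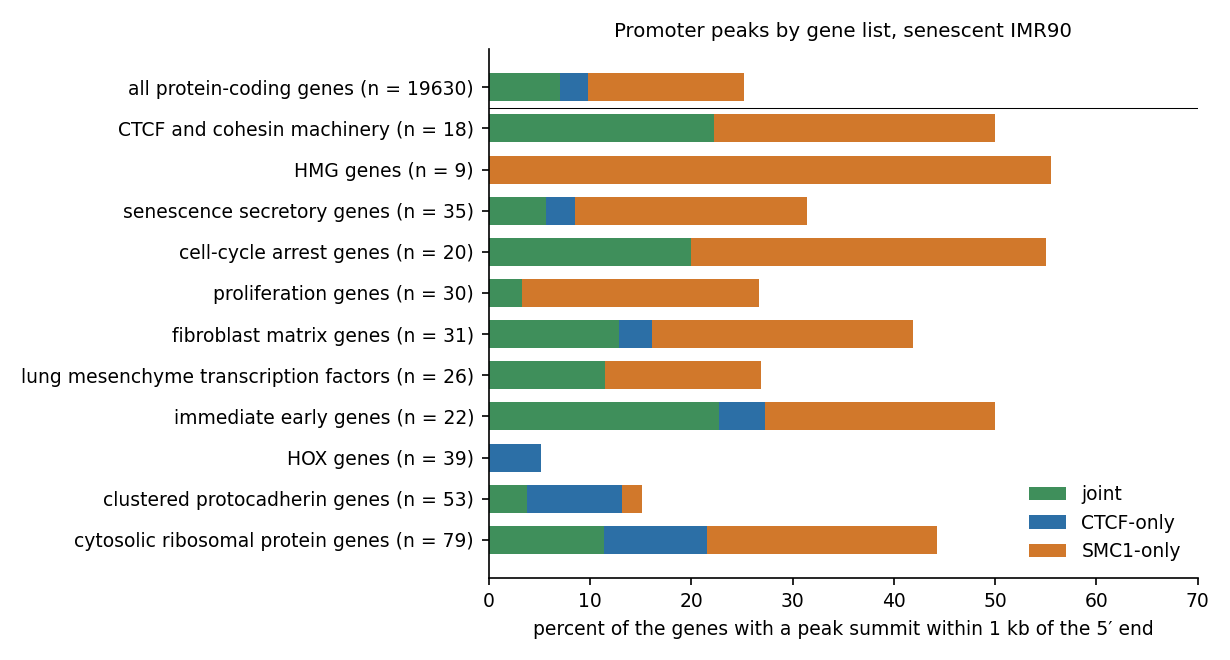
Percent of genes (x axis) with a joint (green), CTCF-only (blue) or SMC1-only (orange) promoter peak, for all 19630 protein-coding genes (top) and for each gene list (y axis, number of genes in brackets). HMG genes show SMC1-only peaks alone (55.6%), HOX genes CTCF-only peaks alone (5.13%), and the 9 genes with separate peaks are not drawn.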

How the data were processed

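CUT&Tag was carried out in IMR90 with antibodies against CTCF and SMC1. Per the submitters' processing notes and the methods, the authors trimmed paired-end reads, aligned them to hg38 and to E. coli with Bowtie2 (2.3.4.1), calibrated by the E. coli reads and called peaks in each library with SEACR (1.3), keeping the top 1% of regions. The notes also name Picard (2.20.7) and deepTools, with no role given. In the methods, CTCF peaks were further kept by whether a consensus motif lay under them. The CTCF files used here hold slightly more peaks than those sets, so they may include some peaks with no motif by that search. The deposited lists give for each peak the total signal, the highest signal and the region of highest signal. These signal values are whole numbers, were used only as ranks within a list, and read depth per library is unknown.

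Whole peaks were matched by an overlap of at least 1 bp, without the 1 mitochondrial peak per list. Percentiles are midranks. Gene 5′ ends came from RefSeq on GRCh38, with strand from the RefSeq promoter table (27195 genes, no chromosome 8) or, by symbol, GENCODE 44 (19862), for 79.6% of genes and 98.3% of protein-coding ones. The 5′ end is the outermost of a gene. Sequences are RefSeq, GRCh38.p14. No hg38 genome was used here, so distal peaks were not searched for motifs.

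Intervals are exact (Clopper-Pearson) for shares and order-statistic for medians, at 95%. With 1 library per group nothing was tested between conditions. Matching and promoter calls were checked on simulated peaks. The members and gene lists were chosen with earlier results of these data known. Genes were named by rule: the 3 peaks of highest total signal per class at promoters and elsewhere (joint: by the lower percentile), the 2 tallest single peaks per list, the 2 largest and 2 smallest offsets, and per gene list up to 6 joint, 3 CTCF-only and 3 SMC1-only members, with exceptions stated in the text or named to complete a count of 5. Some genes that the rule names are not reported here. RUVBL2 was chosen after its values were seen. The alternatives tried concern the overlap, list length, ranking and promoter definition. Python 3.11.15, numpy 2.4.6, pandas 2.3.3, scipy 1.17.1 and matplotlib 3.10.9 were used.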

Additional observations from a re-analysis of the deposited data

Results flagged for a closer look

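The mitochondrial peak, which no comparison used, held 31.4% of the listed SMC1 signal in senescent cells, above the 12.4% in control cells and 20.6% in ICM cells, and was singled out for that reason. In the CTCF lists its share was 27.7% in control, 14.4% in ICM and 18.04% in senescent cells. Its part in the other results was not tested.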

How the results depend on the processing

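Of 69 values recomputed over 15 alternatives, 21 stayed within the interval of the value reported and 48 moved beyond it. With 100 bp windows around the summits in place of whole peaks, 34.8% of CTCF and 23.1% of SMC1 peaks were joint, the median offset was 29.5 bp, joint peaks led by 24.3 percentile points in the CTCF list and 14.9 in the SMC1 list (29.1 and 19.7 as reported), and promoter shares were 27.9% of joint and 21.9% of CTCF-only peaks. An overlap of at least 50% of both peaks gave 42.9% and 28.5% joint, a lead of 23.2 points in the CTCF list and a promoter share of 18.4% for CTCF-only peaks. Peaks set to 500 bp around the summit gave 46.9% and 31.1% joint. An SMC1 list cut to the length of the CTCF list gave 38.3% and 38.7% joint, promoter shares of 35.1% for joint and 38.3% for SMC1-only peaks, and a joint promoter at 6.11% of protein-coding genes. Lists kept to the peaks at or above the median total signal gave 44.4% and 29.9% joint, promoter shares of 19.4% for CTCF-only and 42.1% for SMC1-only peaks, and 3.17% of genes. Ranked by highest signal, the leads were 16.5 and 25.3 points. A promoter window of 2 kb gave promoter shares of 38.3%, 22.2% and 39.8% for joint, CTCF-only and SMC1-only peaks and 8.13% of genes, and one of 500 bp gave 24.9%, 13.1% and 29.7% and 6.10%. Protein-coding genes alone gave 26.3%, 12.2% and 29.96%. Promoter peaks that cover a 5′ end gave 13.7% for CTCF-only and 30.6% for SMC1-only peaks.

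Further alternatives were chosen after seeing the data. Every gene start in the promoter table gave promoter shares of 34.95%, 18.2% and 38.2%. Without the decile of lowest highest signal, 48.1% and 31.3% were joint, the offset was 47 bp, the leads were 32.6 and 15.2 points, 28.6% of joint peaks were at promoters and 5.26% of genes had a joint promoter. Leaving out chromosome X moved neither joint share beyond its interval. In each alternative that recomputed promoter shares, joint and SMC1-only peaks had a larger promoter share than CTCF-only peaks, while SMC1-only exceeded joint peaks by 0.131 to 9.74 points. The causes of these shifts were not tested, beyond fewer or shorter regions by construction.

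No paired analysis was possible because each group has 1 library and the titles carry no replicate numbers, and leaving out a replicate was not run for the same reason. Read depth is unknown, and a peak list cannot show signal below its limit.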

Other observations

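Chromosomes differed in how far the lists coincided. The joint share of CTCF peaks ran from 39.9% on chromosome 7 (34.9 to 45.0, 381 peaks) to 56.8% on chromosome 21 (44.7 to 68.2, 74 peaks) among the autosomes, and was 30.3% on X (21.5 to 40.4), where each list had 99 peaks. The joint share of SMC1 peaks was lowest on chromosome 18 (19.1% of 183) and highest on chromosome 19 (44.2% of 701). Chromosome 19 had 1.06 SMC1 peaks per CTCF peak, and chromosome 13 had 2.25.

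Promoters of long non-coding RNA genes followed the same order of classes as coding ones at lower levels. Of 12804 such genes, 389 had a joint peak (3.04%), 199 a CTCF-only peak (1.55%) and 809 an SMC1-only peak (6.32%).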
